A study of Mus musculus with 30 samples.

Results

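The genes described here carry the names of protein parts of the cytosolic ribosome and were chosen by symbol: Rpl or Rps followed by a number, Rplp0, Rplp1, Rplp2 and Rpsa, without symbols that carry -ps and without the Rps6k kinases. They made up 86 of the 16242 features measured in sperm 24 h after the last injection, 52 of the large subunit and 34 of the small subunit. Of these, 20 were also among the 3082 features measured at 46 days, 14 of the large subunit and 6 of the small subunit. Every one of the 86 and of the 20 passed the filter on low counts, which left 13752 and 2866 features to test. The names also took in Rps4l and Rps12l1, which are annotated as pseudogenes, and Rps12l1 is among the 20.

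C57Bl/6J male mice, 3 months old at the start, received tesaglitazar, a dual agonist of the nuclear receptors PPARα and PPARγ, at 10 μg per kg into the peritoneum (Tesa-inj, labelled TESA), or DMSO in saline by the same route (Vehicle-inj, labelled CTRL), 2 times per week for 4 weeks. Sperm that swam out of the cauda epididymis were treated to lyse somatic cells, and their RNA was sequenced. At 24 h, 4 Tesa-inj and 4 Vehicle-inj libraries of polyadenylated RNA held 18795822 to 27709990 and 15337589 to 26261672 estimated counts, respectively. At 46 days, 7 Tesa-inj and 7 Vehicle-inj libraries of total RNA depleted of ribosomal RNA held 7350519 to 13513816 and 4538102 to 10138945. Time after injection and library type changed together and cannot be told apart. The study counts animals after removal of outliers and lists fewer Tesa-inj animals for this sperm RNA at 46 days than there are libraries; which library this concerns is not stated, and all were kept. Which animal each library came from is not given either, so p-values measure the spread between these libraries, which may be partly technical.

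Ribosomal proteins fold around ribosomal RNA into a large subunit, which joins amino acids, and a small subunit, which reads the mRNA. Their mRNAs are among the most abundant in growing cells and usually begin with a run of pyrimidines (the TOP motif), through which the mTOR pathway controls their translation. Mature sperm make almost no RNA or protein, and their RNA is largely a remnant of spermatogenesis, during which autosomal paralogs such as Rpl10l and Rpl39l are expressed while the X chromosome carrying Rpl10 and Rpl39 is silenced.

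The sperm label was checked with 20 markers of late spermatids and sperm, all of them in the 24 h table and none at 0 counts in any library. Their summed level, in counts relative to the TMM-scaled library total (CPM), ran from 4164 in Vehicle-inj library 4 to 13360 in Vehicle-inj library 8, with Odf1, a protein of the outer dense fibers of the tail, the most abundant. At 46 days 17 of the 20 were measured, and their sum ran from 467.7 CPM in Vehicle-inj library 13 to 1119 CPM in Tesa-inj library 11.

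At 24 h, no ribosomal protein gene differed between the groups in edgeR's quasi-likelihood test after Benjamini-Hochberg adjustment over all 13752 features. The smallest adjusted p among them was 1, and 0% of all features passed. At an unadjusted p under 0.05 the count was also 0 of 86, where 2.71% of all features (372) passed. The exact test of edgeR, DESeq2 and limma voom with quality weights likewise found 0 of 86 at either threshold, where 2.68%, 3.59% and 7.43% of all features had an unadjusted p under 0.05. For 0 of 86 did the values of the groups lie apart, a pattern shown by 3.26% of all features.

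The fitted differences nonetheless lay mostly on the same side of 0: 79 of 86 log2 fold changes (Tesa-inj over Vehicle-inj) were above 0, against 47.8% of all features. Their median was 0.27, against −0.02 for all features, and they ran from −0.97 to 0.53. In the large subunit 47 of 52 lay above 0 with a median of 0.28, and in the small subunit 32 of 34 with a median of 0.23. The genes varied together between libraries, so these are not independent observations, and no test was made over the list.

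The spread between libraries of the same group was larger than the difference of the groups. Summed over the 86 genes, Tesa-inj libraries 1, 3, 5 and 7 held 38250, 19080, 43910 and 35090 CPM. Vehicle-inj libraries 2, 4, 6 and 8 held 27700, 17610, 38920 and 26940 CPM. The lowest sums thus stood in a library of each group, Tesa-inj 3 and Vehicle-inj 4, and the group ranges overlapped over most of their length. The means were 34080 ± 10650 and 27790 ± 8722 CPM (SD, n = 4 each). As a share of all counts, without scaling, the genes made up 3.8% ± 1.66 of the Tesa-inj and 2.70% ± 1.18 of the Vehicle-inj libraries (SD, n = 4 each). When totals alone were used for scaling, the median log2 fold change of all features moved to 0.19 and that of the 86 genes to 0.47, which is 0.28 above it. In these bulk samples, fewer cells rich in these mRNAs and less of the mRNAs per cell cannot be told apart.

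Library by library, Tesa-inj 5 was the highest of the 8 for 55 of the 86 genes and Vehicle-inj 6 for 18. Vehicle-inj 4 was the lowest for 65 and Tesa-inj 3 for 16. The median correlation of a gene's log2 level with the mean of the other 85 was 0.963 over the 8 libraries, and 70 of 86 exceeded 0.9. Of the other tested features, 1.35% exceeded 0.9 with the same mean. These points share their libraries and their scaling, so the values are a description.

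**Figure D1:**
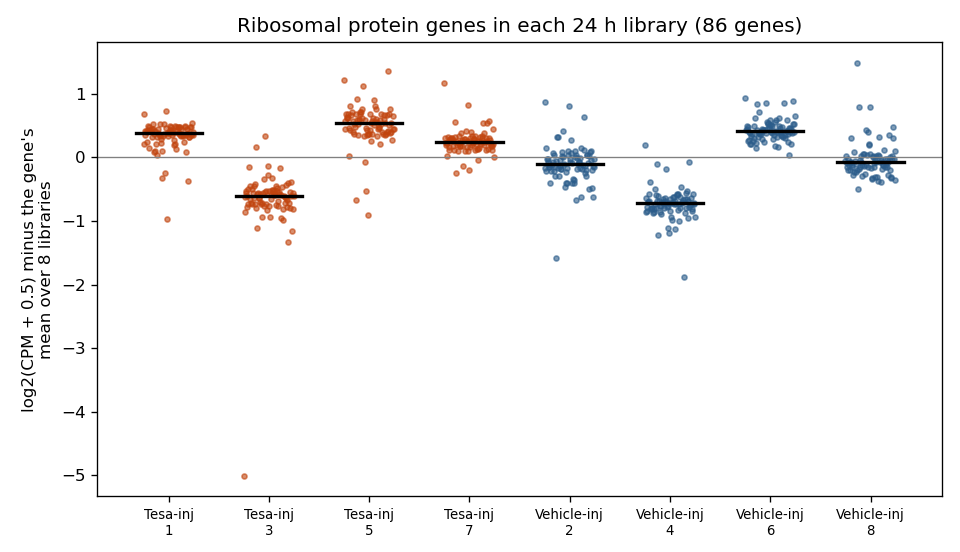
Level of the 86 ribosomal protein genes in each 24 h library, as log2(CPM + 0.5) minus the gene's own mean over the 8 libraries; each point is a gene and each black line the median of a library. Medians ran from −0.72 in Vehicle-inj 4 and −0.60 in Tesa-inj 3 to 0.54 in Tesa-inj 5, and the point near −5.01 is Rpl10 in Tesa-inj 3.

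The size of the difference at 24 h depended on single libraries. Without Tesa-inj library 3 the median log2 fold change was 0.46 with 3 of 85 genes at an unadjusted p under 0.05, where 4.29% of all features were, and without Vehicle-inj library 6 it was 0.48. Without Vehicle-inj library 4 it was 0.14 with 1 such gene of 86, where 3.04% of all features were, and 67 of 86 genes above 0. Without Tesa-inj library 5 it was also 0.14, with 68 of 86 above 0.

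Markers of other cells were compared in the same libraries. Of 20 leukocyte markers 19 were in the 24 h table (Cd3e was not), none at 0 in any library, and their sums in libraries 1 to 8 were 2189, 1821, 1371, 1275, 2260, 2130, 2653 and 1604 CPM. These sums were also lowest in libraries 3 and 4, but most of each was Cd52 (1029 to 2382 CPM), which is also known as a product of the epididymal epithelium. Without Cd52 the sums were 299.7, 404, 300.1, 245.7, 204.6, 201.6, 271.7 and 225.8 CPM, lowest in libraries 5 and 6, where the ribosomal protein genes were highest.

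The 15 epididymal epithelium markers in the table (of 20) summed to 1205, 770.1, 1022, 921.5, 836.1, 1403, 1269 and 2294 CPM in libraries 1 to 8, with Crisp1 the most abundant (256.1 to 1697 CPM) and at most 1 of them at 0 in a library. Without Crisp1 the sums were 604, 457.9, 527, 515.3, 580.1, 603.2, 708.9 and 596.7 CPM, lowest in libraries 2, 4 and 3 and highest in library 7. The 4 hemoglobin genes of the 8 blood markers summed to 53.5 to 269.9 CPM, highest in Vehicle-inj library 8, and 0 of the 4 had a log2 fold change above 0. The 7 smooth muscle markers in the table (of 8) summed to 17.9 to 104.4 CPM, highest in Tesa-inj library 5, with at most 1 at 0, and their log2 fold changes lay mostly on the same side as those of the ribosomal protein genes, 6 of 7 above 0 with a median of 0.58. Of the leukocyte markers 7 of 19 lay above 0 (median −0.05), of the epididymal ones 8 of 15 (median 0.04) and of the sperm markers 9 of 20 (median −0.02). The sperm markers were, like the ribosomal protein genes, lowest in libraries 4 and 3 (4164 and 5981 CPM). The part of these cells in the levels of the ribosomal protein genes was not tested.

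Within the large subunit, Rpl10a, a protein of the L1 stalk, had the smallest unadjusted p of the 86. Its levels were 246.4, 116.5, 308.4 and 220.7 CPM in Tesa-inj libraries 1, 3, 5 and 7, and 110.2, 105.5, 234.3 and 166.5 CPM in Vehicle-inj libraries 2, 4, 6 and 8. The groups overlapped through the low Tesa-inj library 3 and the high Vehicle-inj library 6. The log2 fold change was 0.53 ± 0.36 (SE), with a 95% interval from −0.26 to 1.32, an unadjusted p of 0.165 and a Benjamini-Hochberg adjusted p of 1 by edgeR's quasi-likelihood test. Without Tesa-inj library 5 it was 0.35, and without Vehicle-inj library 6 it was 0.81.

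Other large-subunit genes with small unadjusted p were Rpl22, Rpl29, Rpl28, Rpl24 and Rpl36, with log2 fold changes of 0.42, 0.39, 0.47, 0.46 and 0.42. Rpl28 ranged from 166.9 to 471.4 CPM in Tesa-inj and from 155.5 to 283.3 CPM in Vehicle-inj. Its interval ran from −0.27 to 1.20, so these libraries cannot tell a lower level in Tesa-inj from one more than 2 times higher. Without Tesa-inj library 5 the values of Rpl28, Rpl24 and Rpl36 were 0.20, 0.25 and 0.25. Rpl41, which encodes a very short peptide of the large subunit, had the highest CPM of the 86, followed by the stalk protein gene Rplp1, Rpl13a, Rpl26 and Rps26. That order is by counts and not per length, and no order of level between genes was drawn from it.

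Rpl41 stood at 2473, 1273, 3461 and 2759 CPM in Tesa-inj libraries 1, 3, 5 and 7. In Vehicle-inj libraries 2, 4, 6 and 8 it stood at 2228, 1299, 2584 and 1721 CPM. The difference in log2 level was 0.35 ± 0.37 (SE), within the spread between libraries, and was 0.16 without Tesa-inj library 5 and 0.57 without Tesa-inj library 3. Rpl13a and Rpl26 differed by 0.42 ± 0.34 and 0.35 ± 0.32 (SE) on the same scale, and by 0.28 and 0.22 without Vehicle-inj library 4. Rpl13a was at 0.63 without Vehicle-inj library 6, and Rpl26 at 0.55 without Tesa-inj library 3.

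The P proteins form the acidic stalk through which elongation factors are recruited to the large subunit. Rplp0, which anchors the stalk, was at 836.6 ± 242.7 CPM with tesaglitazar and 640.1 ± 201.7 CPM with vehicle (SD, n = 4 each). Rplp1 was at 1842 ± 655.7 and 1496 ± 499.3 CPM, and Rplp2 at 342.3 ± 134.8 and 286.7 ± 118.2 CPM. The 3 log2 fold changes were 0.39, 0.30 and 0.26, with intervals of −0.34 to 1.11, −0.52 to 1.13 and −0.64 to 1.15. Over fits with 1 library left out, Rplp0 ran from 0.26 (without Vehicle-inj 4) to 0.61 (without Vehicle-inj 6). Rplp1 ran from 0.12 (without Tesa-inj 5) to 0.52 (without Tesa-inj 3), and Rplp2 from 0.06 (without Vehicle-inj 4) to 0.50 (without Tesa-inj 3).

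In the small subunit, Rpsa, also known as the laminin receptor, was at 974.9, 464.6, 1008 and 920.4 CPM in Tesa-inj libraries 1, 3, 5 and 7. In Vehicle-inj libraries 2, 4, 6 and 8 it was at 730, 351.4, 905.3 and 554.5 CPM. All but library 3 of Tesa-inj exceeded all of Vehicle-inj, and the log2 fold change was 0.41 with an interval from −0.39 to 1.20. It was 0.22 without Vehicle-inj library 4 and 0.63 without Vehicle-inj library 6. Rps2 showed the same arrangement, with 453.3 CPM in Tesa-inj library 3 and 714.1 to 767.5 in the other Tesa-inj libraries, against 347.1 to 693.1 CPM in Vehicle-inj. Rps26 differed by 0.30 ± 0.32 (SE) in log2 level, by 0.16 without Tesa-inj library 5 and by 0.50 without Vehicle-inj library 6.

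Some paralogs did not share the common pattern. Rpl7l1, Rpl10l and Rpl39l had the lowest correlations with the mean of the others, at −0.05, 0.01 and 0.25. Rpl39l, the germline paralog of Rpl39, stood at 9.13, 6.40, 3.55 and 6.10 CPM in Tesa-inj libraries 1, 3, 5 and 7 and at 12.9, 2.83, 10.3 and 12.7 CPM in Vehicle-inj libraries 2, 4, 6 and 8. Its log2 fold change was −0.62, with an interval from −1.71 to 0.46, so its direction cannot be told from these libraries. It was −0.41 without Tesa-inj library 5.

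Rpl39, its X-linked parent, was at 369.8 ± 122.1 CPM with tesaglitazar and 347.2 ± 131.2 CPM with vehicle (SD, n = 4 each). Its log2 fold change was 0.09, and −0.11 without Vehicle-inj library 4. Rpl10l, the paralog that takes over from Rpl10 in meiosis, had only 0 to 111 counts per library, and its log2 fold change of −0.97 had an interval from −3.48 to 1.54. Rpl10 itself had 9 counts in Tesa-inj library 3 (0.39 CPM) but 399 to 2788 counts in the other 7 libraries, and its interval ran from −1.92 to 2.10. Its log2 fold change was 0.09, 0.50 without that library and −0.15 without Tesa-inj library 5.

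Of the remaining pairs, Rpl3 and its muscle-enriched paralog Rpl3l differed by 0.27 and 0.33 in log2 level, and Rpl7 and Rpl7l1 by 0.17 and 0.00. Rpl22 was higher by 0.42 and Rpl22l1 was at −0.41. Rpl36a and Rpl36al were at −0.06 and 0.28, Rps4x and Rps4l at 0.20 and 0.42, and Rps27 and Rps27l at 0.45 and 0.18. None of these passed the test. Without Vehicle-inj library 6, Rpl36a was at 0.22, Rpl7l1 at 0.23, Rpl3 at 0.49, Rpl36al at 0.52, Rpl7 at 0.47 and Rps4x at 0.48. Without Tesa-inj library 7, Rpl7l1 was at −0.15, and without Tesa-inj library 5, Rps27 was at −0.12. Without Vehicle-inj library 4, Rpl22l1 was at −0.68, Rpl36al at 0.15, Rpl7 at 0.01, Rps4x at 0.03 and Rps27l at 0.02. Without Tesa-inj library 3, Rpl22l1 was at −0.17, Rps27l at 0.33 and Rps27 at 0.77, and without Tesa-inj library 1, Rpl3 was at 0.16. All 16 paralog genes were tested, 12 above 0 and 4 below.

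Several members share nearly all of their sequence with processed copies elsewhere in the genome, and Salmon divides such reads between them, so these levels are uncertain. Rps27 itself stood at 2.94 to 21.5 CPM while the copy Rps27rt held 98.2% to 99.4% of their summed level. Rps12 likewise held little of its family, since Rps12l1, itself among the 86, and Rps12-ps3 together took 96.0% to 98.3%. Copies held 65.9% to 78.3% of the Rps23 family and 50.2% to 67.9% of the Rpl10a family.

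The copies were also added back to their parent genes. The summed Rps27 family was at 870.2 ± 320.9 CPM in Tesa-inj and 655.4 ± 195.5 CPM in Vehicle-inj. The summed Rpl10a family was at 508 ± 145.2 and 413.3 ± 141.6 CPM, and the summed Rpl28 family at 553.4 ± 204.2 and 382.1 ± 102.7 CPM (SD, n = 4 each). In each of these families the group means differed by less than the SD of Tesa-inj. For the Rps27 and Rpl28 families the difference exceeded the SD of Vehicle-inj. Of 26 annotated copies measured at 24 h, 22 were tested, and 20 of these had log2 fold changes above 0, with a median of 0.33.

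Outside the naming rule, Fau, which encodes a ubiquitin-like fusion of a small-subunit protein, was at 995.4 CPM in Tesa-inj and 763.8 CPM in Vehicle-inj. Its log2 fold change was 0.38 ± 0.33 (SE), 0.19 without Tesa-inj library 5 and 0.57 without Vehicle-inj library 6. Rack1 was not in the tables used here.

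Among other genes of translation at 24 h, none of the tested genes in these lists passed the adjusted threshold. Over all features, 47.8% lay above 0 and 2.71% had an unadjusted p under 0.05 in either direction. Of 76 tested mitochondrial ribosomal protein genes, which serve the separate ribosome of mitochondria, 56 lay above 0 with a median of 0.35, and 4 of them (Mrpl24, Mrpl4, Mrps15 and Mrps34) had an unadjusted p under 0.05. Of 13 elongation and termination factors 8 lay above 0 (median 0.09), and Eif5a had an unadjusted p of 0.016 at a log2 fold change of 0.74. Of 44 initiation factors 27 lay above 0 (median 0.07).

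Of 61 ribosome assembly factors 36 lay above 0 (median 0.10), of which Nop56, a core protein of small nucleolar particles, had an unadjusted p of 0.039. The 18 genes of RNA polymerase I, the enzyme of ribosomal RNA synthesis, had 8 above 0 (median −0.10). The 16 regulators of TOP mRNAs and mTOR had 9 above 0 (median 0.09).

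At 46 days, the 20 members measured all had log2 fold changes above 0, against 46% of the 2866 features tested, with a median of 0.60 against −0.03 for all features. None passed the adjusted threshold in edgeR's quasi-likelihood test, as did 0% of all features, and the smallest adjusted p was 0.754. At an unadjusted p under 0.05, 5 genes were higher in Tesa-inj, where 4.26% of all features were. In either direction, the exact test found 6 of 20 (6.07% of all features), DESeq2 found 3 (4.71% of all features) and limma voom with quality weights found 0 (5.76% of all features) at that threshold, each with 0 after adjustment. With limma voom the direction did not hold, with 9 of 20 above 0 and a median of −0.068.

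These differences rested on Tesa-inj library 12, which was the highest of the 14 libraries for all 20 genes, while it was the highest for 24.2% of all features. Summed over the 20 genes it held 624.4 CPM. The other 6 Tesa-inj libraries held 90.7 to 139.6 CPM, 110.5 ± 22.6 (SD, n = 6), and the 7 Vehicle-inj libraries 56.8 to 132.1 CPM, 104 ± 27.1 (SD, n = 7). Without library 12 the sums of the groups thus differed by less than their spread.

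With library 12 left out and the count filter applied again, 14 of the 20 genes remained to be tested, 8 above 0 and 6 below, where 42.3% of all features were above 0. Their median log2 fold change was 0.09 and none had an unadjusted p under 0.05 in either direction. Of all features 3.11% did in either direction, and 0.778% were higher at that threshold. The 6 that fell below the filter were Rpl28, Rpl31, Rpl32, Rpl7, Rps4x and Rpsa. When the features of the full test were kept instead, an alternative chosen after the first was seen, 10 of the 20 lay above 0 and 10 below, where 42.4% of all features were above 0, with a median of 0.03.

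**Figure D2:**
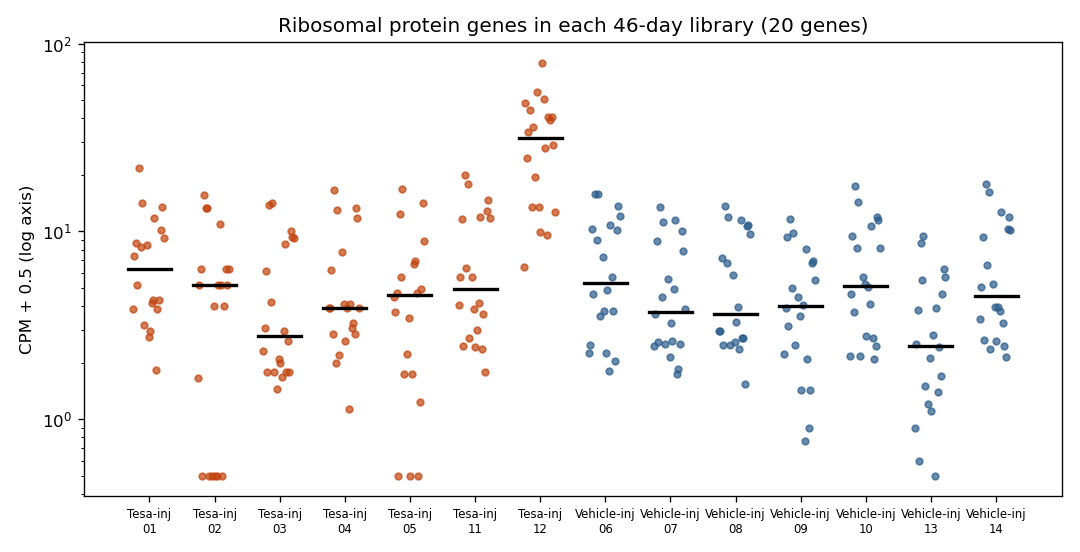
CPM + 0.5 of the 20 ribosomal protein genes in each 46-day library, on a log axis; each point is a gene and each black line the median of a library. The median was 30.8 CPM in Tesa-inj library 12 and 1.96 to 5.80 CPM in the other 13 libraries.

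The depth behind these values was low and uneven. Counts of the 20 genes together ran from 82 in Tesa-inj library 2 to 9880 in Vehicle-inj library 14, with 1580 in Tesa-inj library 12. TMM factors ran from 0.0981 to 8.15, so the scaling carried much of each CPM. As a share of unscaled counts the 20 genes made up 0.0198% of library 12, with a TMM factor of 0.316, and 0.000936% to 0.103% of the other 13, so the high CPM of library 12 rests on its scaling as well as on its counts. Outside the few features with the most counts, library 12 held 569646 counts and the others 158820 to 7119414. The shares of the 20 genes thus also depend on how much those few features took. With library totals alone the median of all features was −1.09, and relative to it the genes' median was 0.37 with 17 of 20 above it, while 1 of 20 was above 0.

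Leaving out Vehicle-inj library 7, 10 or 14 or Tesa-inj library 11 took 7 of the 20 genes below the count filter, and the other 13 lay above 0 in each case. Among libraries 1 to 10 alone, a choice made after seeing the data, 10 genes were tested and 4 lay above 0, with a median of −0.05.

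Among large-subunit genes, Rpl7 had the smallest unadjusted p (0.0117). Its lowest, median and highest levels were 0.74, 2.34 and 38.7 CPM in Tesa-inj and 0.92, 1.53 and 2.00 CPM in Vehicle-inj. The highest was library 12, and the next Tesa-inj value was 3.79 CPM. The log2 fold change was 2.20 ± 0.77 (SE), with a Benjamini-Hochberg adjusted p of 0.754 by edgeR's quasi-likelihood test, and 0.33 without library 12 on the same features.

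Rpl19 had levels of 0.64, 3.79 and 50.2 CPM (lowest, median, highest) in Tesa-inj and 0, 1.85 and 4.42 CPM in Vehicle-inj. Its log2 fold change was 2.14 ± 0.87 (SE), and 0.55 without library 12. Rpl4 went from 1.89 ± 0.89 (SE) with library 12, where it was at 78.3 CPM, to −0.60 without it, a change of sign.

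The stalk genes showed the same dependence. Rplp1 was at 47.8 CPM in library 12, at 2.55 to 6.91 CPM in the other Tesa-inj libraries and at 1.97 to 4.58 CPM in Vehicle-inj. Its log2 fold change was 1.69 ± 0.61 (SE) with library 12 and 0.42 without it. Rplp0 went from 1.28 ± 0.77 (SE) to −0.10.

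In the small subunit, Rpsa was at 40.3 CPM in library 12, at 0 to 3.35 CPM in the other Tesa-inj libraries and at 0.40 to 3.28 CPM in Vehicle-inj, with log2 fold changes of 2.00 with library 12 and 0.32 without it. Rps15 was at 35.6 CPM in library 12, at 12.5 to 17.3 CPM in the other Tesa-inj libraries and at 8.95 to 15.7 CPM in Vehicle-inj, and went from 0.51 ± 0.24 (SE) to 0.22. The level in library 12 relative to the mean of Vehicle-inj thus differed between genes, from 1.66 times for Rpl36 to 26.4 times for Rpl7.

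**Figure D3:**
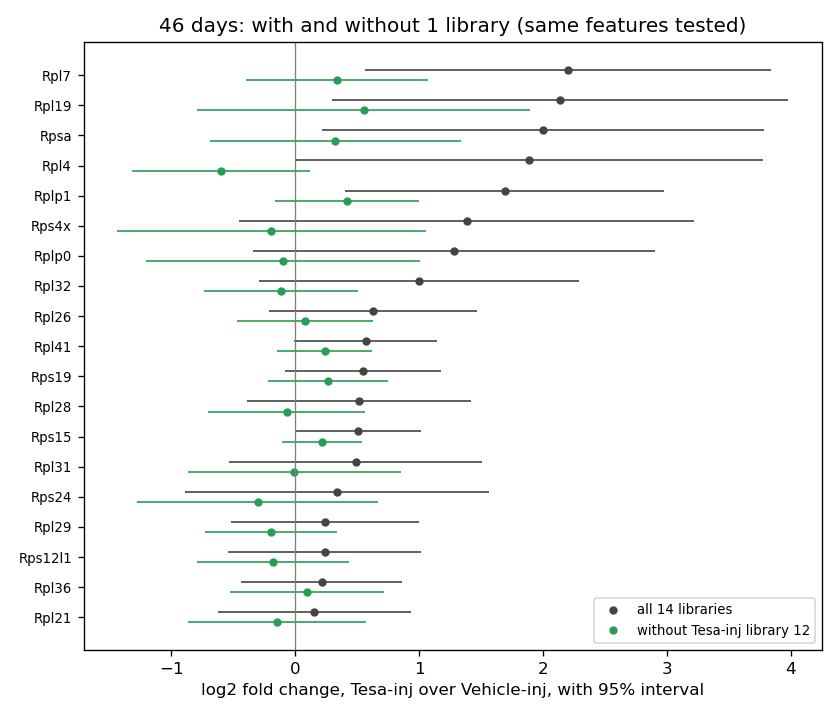
Log2 fold change (Tesa-inj over Vehicle-inj) with 95% interval for 19 of the 20 genes at 46 days, with all 14 libraries (grey) and without Tesa-inj library 12 (green), on the same 2866 features. Points run from 0.15 to 2.20 with all libraries and from −0.60 to 0.55 without library 12.

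Some other genes of translation stood high in the same library. The 8 measured genes of elongation and termination, Tpt1 (a TOP mRNA) counted with them, summed to 1334 CPM in library 12 and to 45.4 to 106.3 CPM in the other 13, led by Eef1a1, which delivers aminoacyl-tRNA, at 870.3 CPM against at most 39.5. Eef2, the translocation factor, was at 343.4 CPM against at most 26.3. Of 8 such factors tested 6 lay above 0, where 46% of all features did. An unadjusted p under 0.05 was found for 3 (Eef1a1, Eef2 and Tpt1), where 4.26% of all features were higher at that threshold. Without library 12, Eef1a1 went from a log2 fold change of 3.07 to 0.22 and Eef2 from 1.90 to 0.22. Tpt1 had no fitted value without library 12.

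Of 13 initiation factors tested 10 lay above 0, 3 of them with an unadjusted p under 0.05 (Eif1, Eif4g2 and Eif4h). Without library 12, Eif1 went from a log2 fold change of 1.28 to 0.16, Eif4g2 from 2.44 to 0.85 and Eif4h from 1.11 to 0.29. Eif4g1, however, was at 327.2 CPM in library 12 against up to 626.9 elsewhere. Fau had a log2 fold change of 1.03, and 0.16 without library 12. The 2 mitochondrial ribosomal protein genes measured, Mrps18b and Mrpl47, summed to 2.77 CPM in library 12 and to 2.33 to 5.95 CPM in the others. Of 8 assembly factors 6 lay above 0, none with an unadjusted p under 0.05. Of 5 TOP and mTOR regulators 3 lay above 0, 1 of them with an unadjusted p under 0.05: Eif4ebp2, which encodes a repressor of cap-dependent initiation, had a log2 fold change of 2.13, and 1.31 without library 12, and was at 233.6 CPM in library 12 and at up to 142 CPM elsewhere. Polr2e, the only gene of the RNA polymerase I list measured, was lowest in library 12, at 1.98 CPM against up to 11.6 elsewhere, and its log2 fold change was 0.31 with that library and 0.40 without it.

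None of the leukocyte, epididymal epithelium, blood or smooth muscle markers was in the 46-day table, so their part in library 12 was not tested. The sperm markers summed to 550.5 CPM in library 12, higher than in Vehicle-inj library 13 only.

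Whether the treatment difference itself changed between 24 h and 46 days was tested as an interaction over 2680 features in both tables. For 0 of the 20 genes was the unadjusted p under 0.05, the smallest being 0.0572 for Rpl7, where 8.17% of all features passed. After adjustment the count was 0, with a smallest Benjamini-Hochberg adjusted p of 0.618 by edgeR's quasi-likelihood test. Without library 12, 1 of 20 (Rpl4) had an unadjusted p under 0.05, where 7.65% of all features did, and 0 passed after adjustment. DESeq2, the exact test and limma were not run on the interaction.

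The 20 genes in the 46-day table had a median level of 471.9 CPM at 24 h, and the other 66 had 262.7 CPM. Their log2 fold changes at 24 h had medians of 0.35 and 0.25.

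Promoter sequences were searched for a pyrimidine start and for the letters CCGGAAG, each present in a minority of the genes. RefSeq entries (GRCm38.p6) of 300 bases, from 250 before the annotated first base, matched 64 of the 86 genes (74.4%). Since under 80% matched, a comparison of shares over the group is void. A C at the annotated first base followed by at least 4 bases that are C or T was present in 13 of the 64, and in 3.01% of all genes with an entry. With the C allowed within 5 bases of that position, the count was 29 of the 64, and 21.2% of all genes with an entry. CCGGAAG on either strand, a core bound by ETS factors, were in 26 of the 64, and in 9.93% of all genes with an entry.

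The windows below hold 80 bases before and 20 from the annotated first base, on the gene's strand, with capitals for the pyrimidine run. They are shown because the first 3 are the genes named above that begin with such a run, and the last pair is the X-linked Rpl39, with a run that ends at its annotated first base, and its paralog Rpl39l. The Rpl39l window also has pyrimidines directly before its annotated first base, left in lower case because they begin with a C outside the 5 bases searched, so the pair shows no contrast.
Rpl28 (chr7:4792885-4792984, plus strand): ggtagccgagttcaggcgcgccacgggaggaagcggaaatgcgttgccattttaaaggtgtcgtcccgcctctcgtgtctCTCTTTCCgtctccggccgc
Rplp2 (chr7:141447571-141447670, plus strand): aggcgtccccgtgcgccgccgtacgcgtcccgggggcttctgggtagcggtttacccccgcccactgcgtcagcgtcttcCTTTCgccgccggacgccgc
Rps27 (chr3:90213629-90213728, minus strand): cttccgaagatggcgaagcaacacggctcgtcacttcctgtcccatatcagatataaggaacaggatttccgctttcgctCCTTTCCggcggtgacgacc
Rpl39 (chrX:37085203-37085302, minus strand): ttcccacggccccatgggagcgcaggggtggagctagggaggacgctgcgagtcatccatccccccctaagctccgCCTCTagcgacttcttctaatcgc
Rpl39l (chr16:10170148-10170247, plus strand): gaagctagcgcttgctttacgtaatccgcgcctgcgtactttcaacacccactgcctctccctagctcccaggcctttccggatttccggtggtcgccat
A match describes these letters only and was not tested for binding or translation.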

How the data were processed

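The authors trimmed reads with Trim Galore 1.16 and quantified them with Salmon 0.11.2 on GRCm38. The deposited values are estimated counts per gene or repeat family, not normalized. They were rounded to whole numbers. Each table was fitted alone and whole: TMM scaling, a filter that kept features exceeding 20 counts in 4 or more (24 h) or 6 or more (46 days) libraries, and the quasi-likelihood test of edgeR 4.0.16 (R 4.3.3) with Benjamini-Hochberg adjustment over all tested features at 0.05. Scripts were tested on simulated data. The exact test, DESeq2 1.42.0, limma 3.58.1 voom, other scalings and filters, and leaving out each library were alternatives; with a library left out, the filter was applied again. CPM are the usual scaled counts, computed from the deposited counts and TMM-scaled totals. Intervals are 95% from the fit.

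Named genes were the 8 with the smallest unadjusted p at 24 h, the 5 highest by CPM, paralog pairs, the stalk genes and Rpsa, the 8 with the smallest p at 46 days, and ribosomal proteins outside the naming rule; other genes were named after their values were seen, and 2 genes the rule selects are not reported singly here, though the counts, medians and sums include them. Members and lists were chosen with earlier results of these data known. Promoter sequences are from RefSeq (GRCm38.p6).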

Additional observations from a re-analysis of the deposited data

Results flagged for a closer look

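In groups of 4 or 7 libraries, a value was singled out when its gap to the nearest other library was large for the range of its group (Dixon's criterion). Chance picks out about 1 in 20 groups. At 24 h, 3 of 74 groups were singled out, all for a low value in Tesa-inj library 3: Rps2 at 453.3 CPM (others 714.1 to 767.5), Rpl36al at 57.9 CPM (others 89.6 to 93.2) and Rpsa at 464.6 CPM (others 920.4 to 1008).

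At 46 days, 11 of 26 groups were singled out, all for a high value in Tesa-inj library 12. These were Rpl7 at 38.7, Rplp1 at 47.8, Rpl19 at 50.2, Rpsa at 40.3, Rpl4 at 78.3 and Rps15 at 35.6 CPM. The others were Rpl41 at 43.9, Rps4x at 33.2, Rplp0 at 54.9 and Fau at 35.2 CPM, and the sum of the 20 genes at 624.4 CPM. These groups share 1 library and are not independent.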

How the results depend on the processing

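No paired analysis was possible because the groups compared share no replicate number. At 24 h, no setting brought a gene under the adjusted threshold, and most genes lay above 0 in all of them. The number at an unadjusted p under 0.05 was 0 to 3 over fits with 1 library left out: 3 without Tesa-inj 3 (4.29% of all features), 1 without Vehicle-inj 4 (3.04%), and 1 with libraries 3 and 4 both left out (3.58%), which was chosen after seeing the data. The number above 0 was 67 to 83 and the median log2 fold change 0.14 to 0.48 over these fits.

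Only the named genes were followed singly at 24 h. Other members turned over as well: 82 of 86 lay above 0 with library totals and 73 with limma voom, against 79 in the main test. Log2 fold changes of named genes that turned over were Rpl36a with library totals (0.18), and with limma voom Rpl36a (0.024), Rpl7l1 (−0.035), Rpl10 (−0.92) and Rpl39 (−0.013). Rpl7l1 was also −0.16 with libraries 3 and 4 left out. With 1 library left out, Rpl7l1 ran from −0.15 to 0.23, with −0.11 (Vehicle-inj 2), −0.11 (Tesa-inj 3), −0.049 (Vehicle-inj 4) and −0.005 (Vehicle-inj 8). Rpl36a ran from −0.38 to 0.22, with 0.11 (Vehicle-inj 2) and 0.18 (Tesa-inj 3). Rpl39 ran from −0.11 to 0.30, with −0.012 (Tesa-inj 1) and −0.000329 (Tesa-inj 5). Rpl10 ran from −0.15 to 0.50, with −0.15 (Tesa-inj 7) and −0.067 (Vehicle-inj 8). Rps27 ran from −0.12 to 0.77. The cause was not tested.

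At 46 days, no setting brought a gene under the adjusted threshold. The number at an unadjusted p under 0.05 was 5 of 20 with all libraries (5.3% of all features in either direction). It was 3 with DESeq2 (4.71%), 0 with library totals (7.19%) and 0 with limma voom (5.76%). It was 7 with DESeq2 size factors in edgeR (5.44%), 6 with repeat families left out (5.82%) and 6 with the exact test (6.07%). With 1 library left out it was 0 to 8: 8 of 20 without Tesa-inj 2 or 3 (5.83% and 6.25% of all features), 2 of 13 without Vehicle-inj 7 (3.58%), 3 of 13 without Vehicle-inj 10 or Tesa-inj 11 (4.04% and 5.09%), and 0 of 14 without Tesa-inj 12 (3.11%). The number above 0 was 1 of 20 with library totals and 9 of 20 with voom, with medians of −0.71 and −0.068. With 1 library left out it was 8 to 20 and the median 0.09 to 0.72; the 13 without Vehicle-inj 7, 10 or 14 or Tesa-inj 11 were all that were tested. For the others the cause was not tested.

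The following were chosen after seeing the data. Without libraries 2 and 12, 0 genes had an unadjusted p under 0.05 (3.71% of all features) and 9 of 14 were above 0. With libraries 1 to 10 alone these numbers were 1 (2.14%) and 4 of 10. A term for libraries 11 to 14 gave 2 with an unadjusted p under 0.05 (3.35%) and 20 of 20 above 0, with a median of 0.49. Without library 12 on the features of the full test the numbers were 0 (3%) and 10 of 20, and by the exact test without library 12 they were 0 (3.64%) and 8 of 14.

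At 46 days only the named genes were followed singly, so the lists here leave out other members that turned over. The named genes that turned over with library totals were Rpl7 (−0.19), Rplp1 (−0.35), Rpl19 (−0.28), Rpl4 (−0.47), Rps15 (−0.81), Rpl41 (−0.79), Rps4x (−0.58), Rplp0 (−0.59) and Fau (−0.72). With voom they were Rpsa (−0.20), Rpl4 (−0.79), Rps4x (−0.88) and Rplp0 (−0.61), and with DESeq2 Rpl4 (−0.52). Over fits with 1 library left out, Rpl4 ran from −0.60 to 2.16 and Rplp0 from −0.10 to 1.54, both lowest without library 12. Without that library they were, on the features of the full test Rpl4 (−0.60), Rps4x (−0.19) and Rplp0 (−0.10), and by the exact test Rpl4 (−0.61) and Rplp0 (−0.17). Rpl4 was −0.53 without libraries 2 and 12, and Rplp0 −0.35 with libraries 1 to 10 alone. The cause was not tested.

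Depth limits the 46-day values: the 20 genes had 82 to 9880 counts per library, and 66 of the 86 genes are not in that table. With 4 libraries per group at 24 h, the intervals allow differences of either sign. Levels of genes with near-identical copies, and any comparison between the time points, remain uncertain for the reasons given above.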
